A study of Mus musculus with 8 samples.

Results

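BRG1-bound regions of injured mouse hearts were described at 10 genes that set the pace of entry into the cell cycle. These were the D-type cyclins Ccnd1, Ccnd2 and Ccnd3, the E-type cyclin Ccne1, the kinases Cdk4 and Cdk6, the CIP/KIP inhibitors Cdkn1a, Cdkn1b and Cdkn1c, and the INK4 inhibitor Cdkn2a. The genes were chosen by name, and all 10 were found in the GENCODE annotation of the mouse build mm9, which holds 37273 genes on the autosomes, X and Y, of which 22367 are protein-coding.

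D-type cyclins bind CDK4 or CDK6, and the active pair phosphorylates the retinoblastoma protein, which releases E2F factors and lets the cell pass from G1 into S phase. Cyclin E with CDK2 completes that step. INK4 proteins bind CDK4 and CDK6 directly, whereas CIP/KIP proteins bind cyclin-CDK complexes, above all those with CDK2. Heart muscle cells divide in the fetus and largely leave the cycle soon after birth, and the balance of these activators and inhibitors is part of that exit. BRG1 is an ATPase of the SWI/SNF complexes, which move nucleosomes along DNA and may hold BRM in its place.

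The study made 8 ChIP-seq libraries from C57BL/6 mice of 10 to 12 weeks, per the sample labels, whereas the methods of the paper give adult mice a somewhat higher age. Mice received daily intraperitoneal injections of PBS or of 12 mg per kg of thymosin β4 (Tβ4), a small actin-binding peptide, during the week before myocardial infarction (MI) and again on days 0 and 2. MI was induced by tying off the left anterior descending artery for good, and whole hearts, and therefore a mixture of heart cell types, were taken 4 days later. There were 2 BRG1 ChIP and 2 input libraries for each of PBS priming and Tβ4 priming. The values given here come from 1 list, the regions enriched for BRG1 over input in Tβ4-primed hearts. It states where each region starts and ends and nothing of its strength, and its region names carry no replicate. Depth and replicate spread are therefore unknown, and no difference between groups could be tested. PBS-primed hearts were not analysed here.

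The list held 524614 regions with a median length of 600 bp, and it covered 25.8% of the genome. A gene window was the gene body with 5 kb on each side. The covered share is the percentage of bases of a window that lie inside regions. Each gene was set beside the 200 protein-coding genes nearest to it in length, called its length peers. A start window was the stretch within 5 kb of the annotated gene start (TSS), the same length for every gene.

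A region lay in the gene window of all 10 genes, as it does for 97.5% of protein-coding genes. The covered share of gene windows ran from 18.6% at Cdkn1b to 45.4% at Cdkn2a. The median over the 10 genes was 32.5%, beside 25.2% over all protein-coding genes. The share was above the median of the length peers at 8 of the 10 genes, where 50.1% of all protein-coding genes are. The exceptions were Cdk6 and Cdkn1b. A region touched the gene body of 9 genes, all but Cdkn1c, beside a background of 84.1%. These counts describe a short list chosen by name, and no test was made on them.

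Start windows varied far more among the genes than gene windows did. Their covered share ran from 6.90% at Cdkn1b to 96.7% at Cdkn2a, with a median of 33.7% beside 22.2% over all protein-coding genes. Over all protein-coding genes, too, the quartiles were further apart for start windows, 7.85% and 40.5%, than for gene windows, 15.5% and 35.2%. A region lay within 5 kb of the start of all 10 genes, which also holds for 90.5% of protein-coding genes. It lay within 1 kb at 5 genes, a share near the background of 55.4%. The start itself was inside a region at 3 genes, Ccne1, Cdkn1a and Cdkn2a, beside a background of 24.2%. The same 3 genes had at least 50% of the start window covered, as did 16.3% of protein-coding genes. With flanks of 10 kb only Cdkn2a did, at 80.2%, with 47.6% at Cdkn1a and 36.7% at Ccne1. With only regions of at least the median length, Ccne1 had 41.7%.

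**Figure D1:**
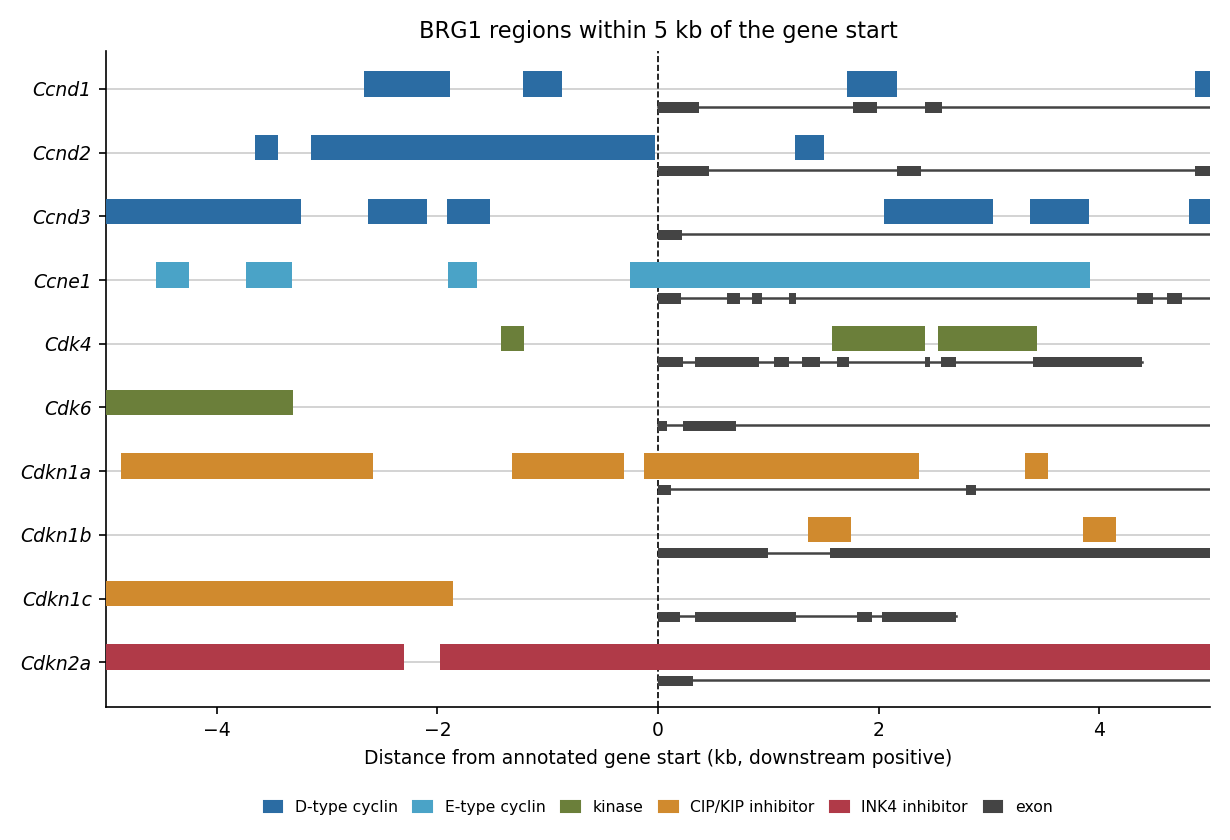
BRG1 regions (coloured boxes) within 5 kb of the annotated start of each gene, drawn in the direction of transcription, with exons of protein-coding transcripts as dark boxes beneath. Boxes cross the dashed line, the gene start, at Ccne1, Cdkn1a and Cdkn2a, while 5 genes have no box within 1 kb of it.

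The D-type cyclin genes carried regions in their bodies and upstream, and none over the annotated start. Ccnd1, on chromosome 7 from 152115836 to 152125774 on the minus strand, had 6 regions and a covered share of 36.6%, above 155 of its 200 length peers. Its product, cyclin D1, is a classical target of growth factor signals. A region of 450 bp covered the whole of exon 2, and a region of 2370 bp covered exon 4 and the beginning of exon 5, which is coding. A region of 990 bp at the other end of exon 5 accounted for the 424 covered bases of the 3′ UTR, 15.8% of it. Exons 1 and 3 lay outside regions, and 56.7% of the coding sequence was covered. Upstream of the Ccnd1 start the nearest region, of 360 bp, ended 866 bp away. The start window was covered to 17.3%, a share that 41.7% of protein-coding genes fell below. This depended on the flank. With 10 kb the Ccnd1 start share was 33.1%, above the median of 24.0% over all protein-coding genes, and within 1 kb it was 6.75%.

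Ccnd2, on chromosome 6 from 127075797 to 127101066 on the minus strand, encodes cyclin D2. Its 11 regions gave a share of 36.0%, above 149 of 200 peers and close to that of Ccnd1. A region of 3120 bp ended 24 bp upstream of the Ccnd2 start, so that most of the promoter lay inside it, but neither the bases next to the start nor the first transcribed bases did. Of all regions in the list, 10.5% are longer than this. Within the gene, 8 regions fell mainly in introns and in exon 5, of which 49.6% was covered. Exons 1 to 4 had no covered base. The coding sequence was covered to 17.3% and the 3′ UTR to 47.9%.

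Ccnd3, on chromosome 17 from 47642000 to 47736632 on the plus strand, is the longest D-type cyclin gene, and most of its length is the first intron of its longer transcript. It had 36 regions, but its share of 26.8% hardly differed from the median of 26.6% of its peers, and 101 of 200 peers lay below it. The regions had a median length of 540 bp, under the median of the list, and were closely spaced. By regions per kb, Ccnd3 had 0.344, above 197 of 200 peers. No base of the coding sequence or of the 3′ UTR was covered. An inner start of Ccnd3 lies 88.4 kb downstream of the gene start, and there the nearest region ended 627 bp upstream. The covered share within 5 kb was 44.2% at the outer start and 36.3% at the inner start.

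Ccne1, on chromosome 7 from 38883003 to 38892553 on the minus strand, encodes cyclin E1, the partner of CDK2 at the entry into S phase. It was the only cyclin gene of the 10 with a region over its start. This region, of 4170 bp, reached from 256 bp upstream to 3913 bp downstream of the start, and 6.18% of the regions in the list are longer. It took in exons 1 to 4 and 100% of the annotated 5′ UTR, while exons 5 to 9 had no covered base. A further region of 1110 bp lay over exon 11 and parts of exons 10 and 12 at the other end of the gene. The Ccne1 window was covered to 44.0%, above 159 of 200 peers, and its start window to 51.6%, above 84.9% of protein-coding genes. At 0.460 regions per kb of gene window, flanks of 5 kb included, Ccne1 was the most densely marked of the 10 genes. Only 2 of its 9 regions touched the gene body of 9551 bp, whereas Cdk4 had 2 in a body of 4387 bp.

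The promoter of Ccne1 is printed because it lies wholly inside this region. Promoter sequences are those of RefSeq (build GRCm38.p6), each matched once and exactly to mm9, and only bases upstream of the transcript start in question are shown, 5′ to 3′ on the strand of the gene. Capitals mark bases inside a BRG1 region and lower case marks bases outside. The stretch is chr7:38892554-38892759.
Ccne1 promoter: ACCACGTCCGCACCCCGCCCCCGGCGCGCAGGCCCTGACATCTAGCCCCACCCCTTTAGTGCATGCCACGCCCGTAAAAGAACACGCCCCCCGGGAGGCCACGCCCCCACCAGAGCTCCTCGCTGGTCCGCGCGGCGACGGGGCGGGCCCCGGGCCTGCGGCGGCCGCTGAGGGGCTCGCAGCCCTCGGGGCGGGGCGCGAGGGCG

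The kinase genes Cdk4 and Cdk6, whose products share the D-type cyclins as partners, lacked a region within 1 kb of the start. Cdk4, on chromosome 10 from 126500590 to 126504976 on the plus strand, is a compact gene of 4387 bp. It had 6 regions and a covered share of 32.0%, above 141 of 200 peers. Within the gene, regions of 840 bp and 900 bp lay 1580 bp and 2540 bp downstream of the start. They covered exons 5 and 7 whole and 73.1% of the intron bases, but no base of the 5′ UTR or 3′ UTR. Exons 1 to 4 of the main transcript were outside. The start window of Cdk4 was covered to 19.5%, below the median of 22.2% over all protein-coding genes. With flanks of 10 kb it was covered to 35.1%, above the median of 24.0%.

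Cdk6, on chromosome 5 from 3343893 to 3523218 on the plus strand, is the longest of the 10 genes. It had 51 regions, 50 of them touching the gene body, and a covered share of 23.9%. Only 66 of 200 peers lay below it by share, whereas 187 lay below it by regions per kb, so its regions were many for its length but covered no more than those of its peers. Around the Cdk6 start the list was empty from 3304 bp upstream to 5577 bp downstream. Exons 3 and 4 of the longer transcript, of 136 bp and 168 bp, lay wholly inside regions, and no base of either UTR was covered. The longest region of Cdk6, of 3750 bp, began 147 kb downstream of the start.

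**Figure D2:**
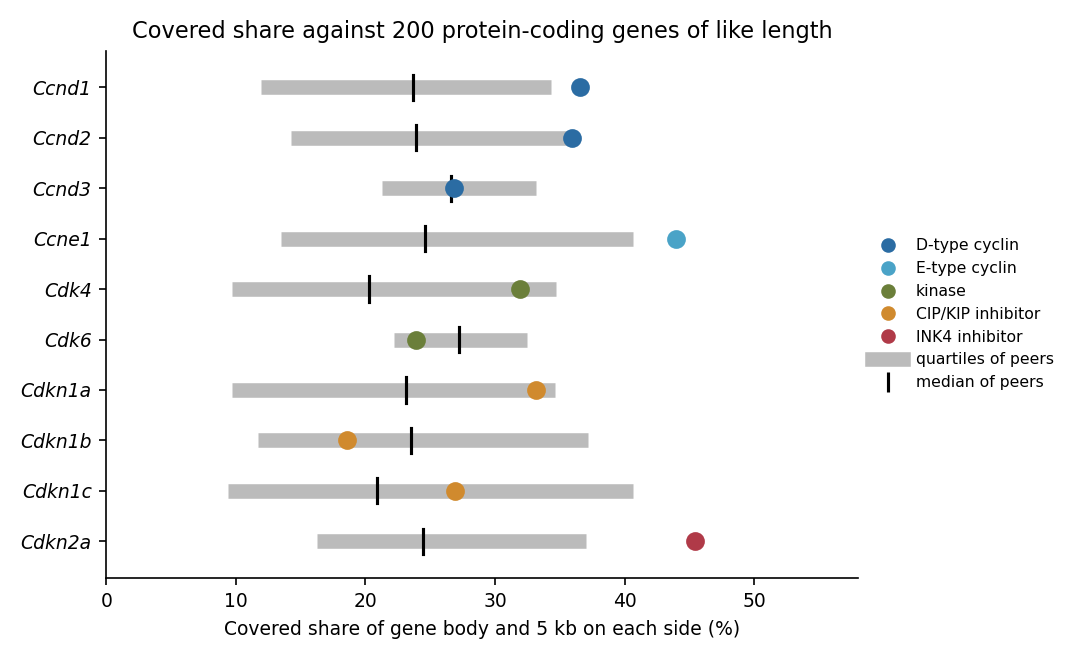
Covered share of each gene window (points, coloured by role) with the quartiles (grey bar) and median (black line) of its 200 protein-coding length peers. Ccnd1, Ccne1 and Cdkn2a lie above the upper quartile, Ccnd2 just inside it, and Cdk6 and Cdkn1b below the median.

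The CIP/KIP inhibitor genes differed from one another around their starts, with 60.0% of the start window covered at Cdkn1a, 31.5% at Cdkn1c and 6.90% at Cdkn1b. Cdkn1a, on chromosome 17 from 29227924 to 29237667 on the plus strand, encodes p21, a well-known target of p53. It had 5 regions and a covered share of 33.1%, above 145 of 200 peers. The gene has several annotated starts, and they differed in coverage. The most upstream start lay in a region of 2490 bp that reached from 124 bp upstream to 2365 bp downstream and took in the whole first exon of that transcript. The start of the main Cdkn1a transcript, 2.79 kb further downstream, lay in a gap between regions, 428 bp from the nearest upstream and 533 bp from the nearest downstream. No base of the Cdkn1a coding sequence or 3′ UTR was covered, and 39.8% of intron bases were. Another start of Cdkn1a, 7.23 kb downstream of the most upstream start, was also outside regions, with 8.88% covered within 5 kb and the nearest region 843 bp upstream.

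The Cdkn1a promoters held by RefSeq, those of the most upstream start and of the main transcript, are printed to show where the region begins. At the upstream start, chr17:29227674-29227923, the last 124 of 250 bases were inside the region. At the start of the main transcript, chr17:29230464-29230713, no base was.
Cdkn1a upstream promoter: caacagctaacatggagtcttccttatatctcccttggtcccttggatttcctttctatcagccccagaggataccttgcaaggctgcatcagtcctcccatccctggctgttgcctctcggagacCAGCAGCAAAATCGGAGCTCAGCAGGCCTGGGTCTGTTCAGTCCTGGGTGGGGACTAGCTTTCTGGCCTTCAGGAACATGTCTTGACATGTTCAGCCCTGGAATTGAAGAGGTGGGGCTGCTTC
Cdkn1a main promoter: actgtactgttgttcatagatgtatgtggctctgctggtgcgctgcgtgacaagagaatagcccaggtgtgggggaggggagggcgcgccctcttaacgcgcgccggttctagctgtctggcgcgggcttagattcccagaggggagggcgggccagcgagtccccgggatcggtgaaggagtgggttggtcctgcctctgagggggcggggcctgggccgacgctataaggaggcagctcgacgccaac

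Cdkn1b, on chromosome 6 from 134870419 to 134875531 on the plus strand, encodes p27, which restrains CDK2 in resting cells. It had the lowest covered share of the 10 genes in both windows with flanks of 5 kb. This rank depended on the flank, since with 10 kb the shares were 21.6% of the gene window and 26.5% of the start window at Cdkn1b, above 17.0% and 19.3% at Cdkn1c. Its gene window was covered to 18.6%, above 78 of 200 peers, and its start window share exceeded that of 22.9% of protein-coding genes. No region lay within 5 kb upstream of its start. The nearest region began 1361 bp downstream, had 390 bp and spanned the boundary between intron 1 and exon 2. The other 4 regions lay further downstream, and 3 of them were beyond the end of the gene.

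Cdkn1c, on chromosome 7 from 150644255 to 150646955 on the minus strand, encodes p57, an inhibitor of fetal growth that is imprinted and expressed from the maternal copy. It was the only gene of the 10 with no region in its body. Both of its regions lay outside, a region of 3180 bp ending 1855 bp upstream of the start and a region of 270 bp beyond the 3′ end. The window was nevertheless covered to 26.9%, above 124 of 200 peers, because of the upstream region. With no flank the covered share of Cdkn1c was 0.

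Cdkn2a, on chromosome 4 from 88920377 to 88940557 on the minus strand, had the highest covered share of the 10 genes in both windows with flanks of 5 kb. In the gene body alone, Ccne1 had 52.6% and Cdkn2a 44.8%. Cdkn2a encodes unrelated proteins from alternative first exons. The upstream start gives Arf, which stabilises p53, and the downstream start gives p16, also called Ink4a, which inhibits CDK4 and CDK6. The gene window was covered to 45.4%, above 177 of 200 peers, and the start window at the Arf start to 96.7%, above 99.6% of protein-coding genes. This came from few and long regions. By regions per kb, Cdkn2a had 0.166, above only 55 of 200 peers.

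The Arf start lay inside a region of 8550 bp that reached from 1972 bp upstream to 6577 bp downstream and covered the whole first exon of Arf. Only 0.850% of the regions in the list are longer. The Ink4a start, 12.5 kb further downstream, was not in a region. The nearest regions there were short, 360 bp long at 244 bp upstream and 240 bp long at 177 bp downstream. The latter took in 14.5% of the first exon of p16. Within 5 kb of the Ink4a start the covered share was 24.6%, above 53.8% of protein-coding gene starts. Exons 2 and 3, which both transcripts use, had no covered base.

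Upstream of the Arf start the regions went on towards Cdkn2b, which encodes a further INK4 inhibitor, p15. Between the annotated ends of Cdkn2a and Cdkn2b lie 11640 bp, of which 95.4% were covered by 3 regions of 8550 bp, 4140 bp and 6660 bp. The last of these ran into the body of Cdkn2b. The region names carry no replicate, so it is not known whether both Tβ4-primed libraries held these long stretches.

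**Figure D3:**
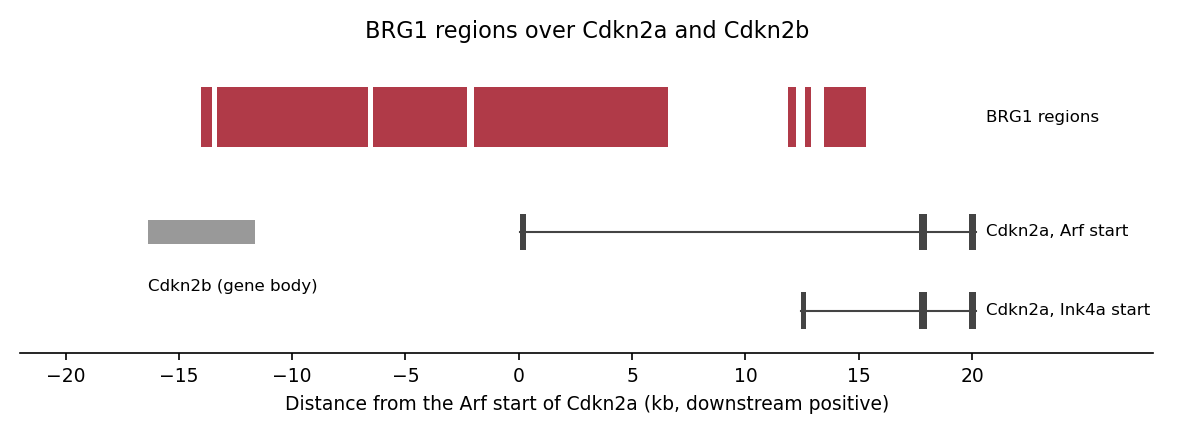
BRG1 regions (red) along Cdkn2a and Cdkn2b by distance from the Arf start, with exons of the Arf and Ink4a transcripts (dark boxes) and the Cdkn2b gene body (grey). Long regions fill the 11640 bp between the genes and the Arf start, and short regions flank the Ink4a start.

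The Cdkn2a promoters are printed for this contrast. At the Arf start, chr4:88940558-88940773, all 216 bases shown were inside the long region. At the Ink4a start, chr4:88928097-88928346, only the first 7 of 250 bases were inside a region. The Arf promoter was also richer in G and C, with 78.4% GC and 40 CpG dinucleotides in the 250 bases before the RefSeq start. The Ink4a promoter had 60.0% GC and 7 CpG dinucleotides. The medians over 32851 RefSeq promoters were 52.4% GC and 6 CpG dinucleotides.
Arf promoter: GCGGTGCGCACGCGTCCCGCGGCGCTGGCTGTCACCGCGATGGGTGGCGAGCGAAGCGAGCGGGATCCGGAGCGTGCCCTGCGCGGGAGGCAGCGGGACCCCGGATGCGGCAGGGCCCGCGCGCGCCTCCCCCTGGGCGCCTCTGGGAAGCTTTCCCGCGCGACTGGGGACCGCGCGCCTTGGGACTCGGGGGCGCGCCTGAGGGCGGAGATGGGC
Ink4a promoter: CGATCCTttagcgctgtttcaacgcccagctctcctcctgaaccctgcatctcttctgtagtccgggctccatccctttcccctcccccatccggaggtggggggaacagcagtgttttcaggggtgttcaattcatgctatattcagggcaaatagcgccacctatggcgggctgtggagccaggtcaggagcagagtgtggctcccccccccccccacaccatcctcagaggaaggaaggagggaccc

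RefSeq promoters were found for 7 of the 10 genes, with 10 starts in all, and not for Ccnd1, Ccnd2 and Cdkn1c. Of these 10 promoters, those of Ccne1 and of the Arf start were wholly inside a region. That of the upstream Cdkn1a start was covered to 49.6%, that of the Ink4a start to 2.80%, and the other 6 had no covered base. Coverage of all RefSeq promoters was not measured, so these counts have no background of their own. Of all protein-coding gene starts, 24.2% lay inside a region. The covered promoters differed in base composition. That of Ccne1 had 76.0% GC and 34 CpG dinucleotides, whereas that of the upstream Cdkn1a start had 54.0% GC and 2 CpG dinucleotides. The uncovered promoter of Cdkn1b held 28 CpG dinucleotides, more than 92.4% of promoters.

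Short motifs were searched on both strands of these 250 bases. The SP/KLF letters GGGCGG occurred in 7 of the 10 promoters and in 32.7% of all promoters. This background was not matched for GC content, which ran from 54.0% to 78.4% in the 10 promoters, beside a median of 52.4% over all. Ccne1 held 4 matches, which began 236, 110, 62 and 49 bases before the RefSeq start, all inside the region, and the Arf promoter held 2 at 48 and 14 bases. The E2F letters TTTNGCGC occurred in 1.13% of all promoters and among these genes only at the Ink4a start, 244 bases before it, in a match that begins at the edge of a region. The letters TATAAA occurred only in the Cdk6 promoter, 103 bases before the start, and in 12.4% of all promoters. The AP-1 letters TGANTCA and the C/EBP letters TTGCNNAA, held by 6.75% and 9.56% of all promoters, occurred in none of the 10. A match describes letters and not a bound site.

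Over the 10 genes together, 28.2% of intron bases, 24.4% of coding bases, 18.7% of 3′ UTR bases and 18.2% of 5′ UTR bases were covered. Most of the intron bases belong to Cdk6 and Ccnd3. Over all protein-coding genes these shares were 27.5%, 25.9%, 27.7% and 25.3%. The UTR shares of the 10 genes rest largely on single genes. Ccnd2 held 2186 of the 3317 covered 3′ UTR bases, and Ccne1 held 321 of the 639 covered 5′ UTR bases. The 3′ UTR had a covered base at 4 of the 10 genes, beside 9546 of 21928 protein-coding genes with a 3′ UTR. The 5′ UTR had a covered base at 4 of the 10 genes, Ccnd3, Ccne1, Cdkn1a and Cdkn2a, beside a background of 38.4%, and was fully covered only at Ccne1. The coding sequence had a covered base at 7 genes, beside a background of 70.9%, and none at Ccnd3, Cdkn1a and Cdkn1c. All of these counts of genes were near their background.

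The mean covered share around the start of the 10 genes departed from that of all protein-coding genes in both directions. In bins of 500 bp, it was 57.8% between 4000 bp and 3500 bp upstream, beside 26.4% over all protein-coding genes, and 31.1% in the last 500 bp before the start, beside 25.5%. Downstream it was 49.3% between 1500 bp and 2000 bp, beside 27.4%. Further into the genes it was lower than over all protein-coding genes, with 13.0% between 4000 bp and 4500 bp and 16.5% between 4500 bp and 5000 bp, beside 27.0% and 26.8%. Few genes make up each mean, and 1 region can span several bins. In the highest bin 5 of the 10 genes were fully covered and 3 uncovered, and in the lowest 8 were uncovered. When Cdkn2a was left out, a choice made after seeing the data, the means of these 5 bins were 53.1%, 23.4%, 43.6%, 3.36% and 7.22%. The bin before the start was then below that of all protein-coding genes. Medians over genes also gave another order than means close to the start, because 5 of the 10 genes had no covered base within 1 kb of it. That count was near the background, since 55.4% of protein-coding genes have a region within 1 kb. The median of the 10 genes is then the midpoint of 0 and the 6.75% of Ccnd1. Within 1 kb, the median share was 3.37% for the 10 genes and 11.3% for all protein-coding genes, whereas within 5 kb the 10 genes had the higher median.

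**Figure D4:**
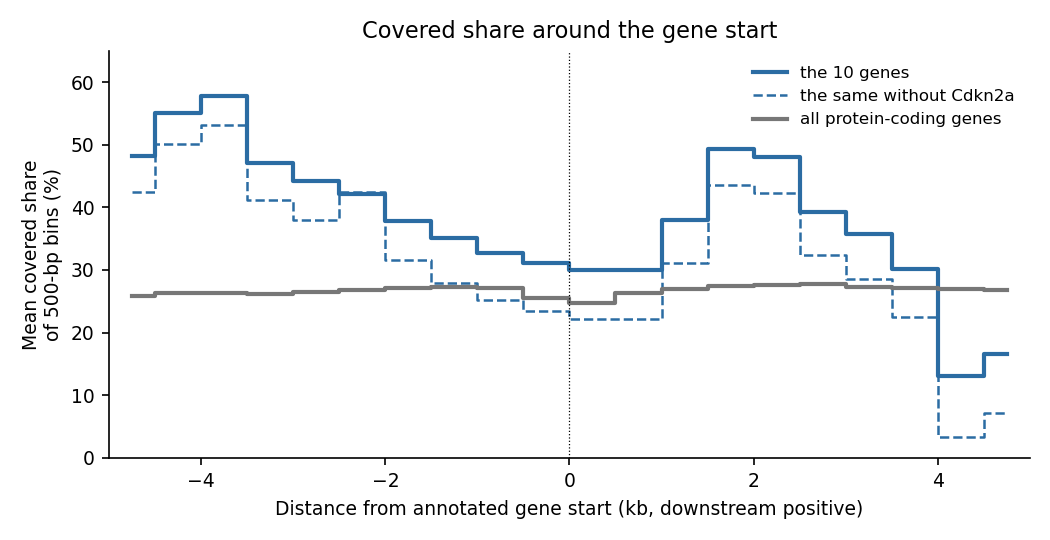
Mean covered share in bins of 500 bp around the gene start for the 10 genes (solid blue), the same without Cdkn2a (dashed blue) and all protein-coding genes (grey). The blue lines are highest from 4000 bp to 3500 bp upstream, at 57.8% and 53.1%, and lowest from 4000 bp to 4500 bp downstream, at 13.0% and 3.36%, while the grey line stays between 24.8% and 27.7%.

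The surroundings of the genes ran over a narrower range than their start windows. They span more bases, and no range over all protein-coding genes was set beside theirs. In the 100 kb centred on each start, with the start window left out, the covered share ran from 17.1% at Cdkn2a to 34.6% at Cdk4. The start window had the larger share at Ccnd2, Ccnd3, Ccne1, Cdkn1a and Cdkn2a, and the smaller at the other 5 genes. This split, for which no count over all protein-coding genes was made, depended on the flank of 5 kb. With 10 kb the start shares at Ccnd1, Cdk4, Cdk6 and Cdkn1b were 33.1%, 35.1%, 32.0% and 26.5%. Over the whole 100 kb, start window included, these genes had 29.3%, 33.1%, 28.6% and 26.4%, so their start windows no longer had the smaller share. Cdkn1c still had the smaller share, with 19.3% beside 33.9%. Ccne1, like Cdkn2a, lay in sparsely covered surroundings, with 18.1% around a start window at 51.6%. Cdkn1b showed the opposite with flanks of 5 kb, with 28.6% around a start window at 6.90%. Within 1 kb of the Cdkn1b start no base was covered, whereas with 10 kb the contrast was lost.

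Several windows were shared with neighbouring genes, so that their regions cannot be given to 1 gene. Oraov1 overlapped the 3′ end of Ccnd1 and was touched by 2 of its regions. Taf8 and Bysl lay in the window of Ccnd3, with 1 and 3 shared regions. March9 and Tspan31 lay in that of Cdk4, with none and 1, and Gm17590 lay inside Cdk6, with none. No other protein-coding gene entered the windows of Ccnd2, Ccne1 or the 4 inhibitor genes.

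GC content of the start windows ran from 44.6% at Cdkn2a, which had the highest covered share, to 57.2% at Cdkn1c. When all protein-coding genes were divided into 5 groups of rising GC content, the median share of start windows only moved from 22.9% in the lowest group to 21.6% in the highest.

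The wider cell cycle list of 37 other genes had a median covered share of 30.6%, between those of the 10 genes and of all protein-coding genes. In that list 25 of 37 genes were above the median of their length peers, beside 50.1% of protein-coding genes. The start was inside a region at 11 genes, or 29.7%, near the background of 24.2%. The highest shares were 64.3% at Cdc25a, a phosphatase that activates CDK2, 59.5% at Cdkn2c, which encodes the INK4 inhibitor p18, and 59.3% at Ccnb2, a mitotic cyclin. The lowest were 7.25% at Cdc25c, 3.80% at Myc and 0 at Mycn, where no region lay in the window.

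By group, the median share was 53.2% for the 3 INK4 inhibitors of the list, 52.5% for the 3 CDC25 phosphatases, 37.4% for the 6 cyclins, 35.3% for the 3 pocket protein genes, 30.3% for the 10 E2F and partner genes, 23.3% for the 4 kinases and 22.5% for the 8 upstream regulators. Named after their values were seen, Cdkn2b and Cdkn2d had shares of 48.4% and 53.2%, and with Cdkn2a at 45.4% and Cdkn2c at 59.5% the shares of all 4 INK4 genes were above the median of their length peers, as are 50.1% of protein-coding genes. The 4 genes were put together as a group after their values were seen. Their window shares nevertheless arose differently, with 13 regions at Cdkn2c and 2 at Cdkn2b. Cdkn2a and Cdkn2b are neighbours beside the same long covered stretch, so they are not separate cases. The regions at Cdkn2b were 6660 bp and 480 bp long, and its start window was covered to 24.1%. The pocket protein genes, whose products are the targets of the D-type cyclin kinases, had shares from 31.2% to 38.3%, and the E2F and partner genes from 11.0% to 47.4%. Among the upstream regulators, and also named after its value was seen, Meis1, a transcription factor known to restrain division of heart muscle cells after birth, had 46 regions and a share of 28.2%.

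**Figure D5:**
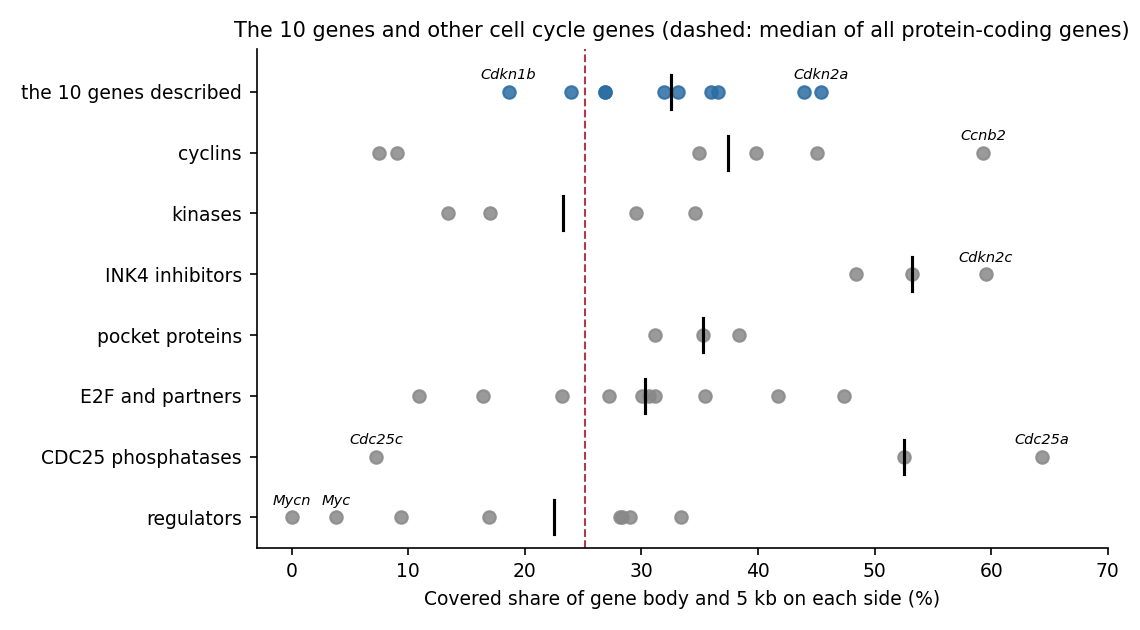
Covered share of gene windows for the 10 genes (blue) and for 37 other cell cycle genes by group (grey), with group medians (black lines) and the median of all protein-coding genes (dashed, 25.2%). The 3 INK4 inhibitors of the wider list lie between 48.4% and 59.5% and Cdkn2a, among the 10 genes, at 45.4%, while Myc and Mycn lie at 3.80% and 0.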

How the data were processed

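Chromatin of whole injured hearts gave 2 BRG1 ChIP and 2 input libraries for each priming. The authors aligned reads with Bowtie 1.0.0 to mm9 and called regions with MACS2 2.0.10. The deposited list gives region starts and ends in bp for Tβ4-primed ChIP over input. The methods and the form of the list point to different MACS2 functions. Whether and how duplicates were merged is not given in the sources used here. The ends of all regions lie within mm9 chromosomes.

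Covered bases and regions with at least 1 bp of overlap were counted with Python 3.11.15, numpy 2.4.6 and pandas 2.3.3. Counting was tested on simulated data, where 2000 of 2000 windows equalled bedtools 2.31.1. Peers were the 200 protein-coding genes nearest in log length. No statistical test was made.

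All 10 genes were named, with the 3 highest and 3 lowest of the wider list and protein-coding genes overlapping a window. Cdkn2b, Cdkn2d and Meis1 were named outside this rule. Members and lists were chosen with earlier results of these data known. Alternatives changed joining, region length, flanks, peers, transcripts and the measure. The sequence of 1 region is not reported here.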

Additional observations from a re-analysis of the deposited data

How the results depend on the processing

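The median covered share of the 10 gene windows, 32.5%, was 33.4% with regions within 500 bp joined, 29.9% with only regions of at least the median length, 32.3% with no flank, 30.2% with flanks of 10 kb and 33.6% over the longest protein-coding transcript. Measured as regions per kb it was 0.306. The median share of start windows, 33.7%, was 35.2% with joined regions, 30.4% with only the longer regions, 3.37% within 1 kb and 35.9% within 10 kb. Over all protein-coding genes the start share within 1 kb was 11.3%. Leaving out regions over 100 kb or unsequenced bases left both medians as they were. The wider list moved from 30.6% to 32.8% with joined regions, and the median over all protein-coding genes from 25.2% to 27.0%. That gene window median over all protein-coding genes was 21.1% with only the longer regions, 23.7% with no flank and 25.4% with flanks of 10 kb. Without Cdkn2a, an alternative chosen after seeing the data, the medians were 32.0% and 31.5%. The number of genes above their length peers ran from 6 to 8 over the alternatives. It was 6 with no flank, where Ccnd3 and Cdkn1c fell below. By regions per kb it was again 8, but with Cdk6 and Cdkn1b in place of Cdkn1c and Cdkn2a. Ccnd3 also fell below with only the longer regions, with the longest transcript, with 50 peers and with peers of any biotype, and Cdkn1c with flanks of 10 kb. The same 3 genes had a covered start with joined regions, with only the longer regions and over any protein-coding start, while the background of 24.2% was 26.7% with joined regions and 31.1% over any such start. Counting regions within 1 kb gave 5. No paired analysis was possible because the list carries no replicate number. Its depth is unknown, so stretches without a region cannot be told apart from stretches with too few reads.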
